A study of Mus musculus with 17 samples.

Results

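Heat-shock-high skin ILCs are the cells of 1 mouse skin single-cell library in which the 2 inducible heat shock protein 70 genes, Hspa1a and Hspa1b, together had 3 or more counts. Of the 4106 cells kept (at least 200 genes detected and under 10% of counts in mitochondrially encoded genes), 466 met this rule, which is 11.3% (exact 95% binomial interval 10.4 to 12.4%). They were set against cells in which both genes had 0 counts. Each heat-shock-high cell was given 1 such cell with a total count within 10% of its own, which made 464 pairs and left 2 heat-shock-high cells without a partner. The cells were thus chosen by their Hspa1a and Hspa1b counts, so the levels of this pair are a description, and both genes were left out of every list and ratio below; the total counts on which cells were matched include them.

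The study concerns innate lymphoid cells (ILCs), lymphocytes without a rearranged antigen receptor, sorted from the skin of mice on a C57BL/6 background, and the transcription factor GATA3. It holds 3 single-cell libraries: the skin library, for which the labels give no treatment or genotype, and dorsal skin libraries taken 0 and 10 days after depilation, which removes hair and starts a new hair cycle. It also holds 14 bulk libraries of sorted skin ILCs: RORgt-fm_pos_Gata3flox (3), RORgt-fm_neg_Gata3flox (3), RORgt-fm_pos (2), RORgt-fm_neg (2), Gata3KO (2) and WT (2), where the last 2 groups both received 3 injections of 5 mg tamoxifen. For the bulk libraries the labels name a sort of live CD90+ cells that lacked lineage markers and the γδ T cell receptor; for the single-cell libraries they name skin ILCs without a gate. Only 1 single-cell library exists per group, so no difference below has a replicate check, and intervals cover counting error only.

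Heat shock genes encode chaperones, proteins that hold or refold unfolded proteins. When unfolded proteins build up, heat shock factor 1 binds heat shock elements, repeats of the bases GAA and their complement TTC, in front of these genes and drives a fast burst of transcription. Hspa1a and Hspa1b are almost silent in many resting cells and are among the strongest responders. The same genes, together with immediate early genes such as Fos and Jun, are known to be switched on in cells that are warmed with enzymes during the dissociation of solid tissue, and also in lymphocytes during activation and fever.

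Hspa1a (ENSMUSG00000091971) lies on the minus strand of chromosome 17, mm10 chr17:34969190-34972156, and Hspa1b (ENSMUSG00000090877) on the same strand at chr17:34956436-34959238. Each has 1 exon and no intron. Their transcripts are near copies: 58.8% of the 50-base stretches of Hspa1a transcripts also occur in Hspa1b transcripts, so reads may have been split between them or dropped, and the sum of both is the safer measure. The promoters below are those of this pair and of 2 chaperone genes that were higher in the same cells, shown as examples that hold the element described above. Each is the 250 bases before a RefSeq start of the gene (GRCm38.p6), written 5′ to 3′ on the gene's strand. Capitals mark matches to the 8-letter heat shock element cores GAANNTTC or TTCNNGAA, where N is any base; both cores read the same on either strand, and they can overlap each other.
Hspa1a, chr17:34972157-34972406, minus strand: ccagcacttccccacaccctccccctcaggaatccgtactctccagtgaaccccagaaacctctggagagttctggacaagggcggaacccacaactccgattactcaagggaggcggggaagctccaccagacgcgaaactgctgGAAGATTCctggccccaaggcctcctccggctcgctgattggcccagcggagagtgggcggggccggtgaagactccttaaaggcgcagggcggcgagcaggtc
Hspa1b, chr17:34959239-34959488, minus strand: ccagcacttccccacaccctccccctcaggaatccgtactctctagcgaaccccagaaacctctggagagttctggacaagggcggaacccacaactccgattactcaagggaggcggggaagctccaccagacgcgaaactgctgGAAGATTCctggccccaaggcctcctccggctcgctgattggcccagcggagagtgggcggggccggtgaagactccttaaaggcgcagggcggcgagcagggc
Hsph1, chr5:149636337-149636586, minus strand: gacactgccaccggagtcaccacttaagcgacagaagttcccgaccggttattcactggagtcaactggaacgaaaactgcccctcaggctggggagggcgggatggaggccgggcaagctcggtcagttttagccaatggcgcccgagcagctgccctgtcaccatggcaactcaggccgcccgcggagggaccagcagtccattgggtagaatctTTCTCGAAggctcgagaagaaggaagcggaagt
Hspe1, chr1:55087898-55088147, plus strand: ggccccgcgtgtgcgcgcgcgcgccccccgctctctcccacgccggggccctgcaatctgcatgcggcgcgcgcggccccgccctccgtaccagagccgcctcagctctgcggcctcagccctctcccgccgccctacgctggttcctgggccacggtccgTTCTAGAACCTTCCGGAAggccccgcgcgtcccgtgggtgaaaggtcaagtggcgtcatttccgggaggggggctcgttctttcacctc

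The Hspa1a and Hspa1b promoters differed at 3 of these 250 bases, and the single core match of each lay at the same distance, starting 104 bases before the gene. Hsph1 has 2 windows in the RefSeq table, and the one shown is the first with the highest number of matches. That window held 1 match, and Hspe1 held 3 overlapping ones. Not all chaperone genes had one: of the 7 cytosolic chaperone genes past 1.5-fold (below), 5 had a window and 2 of these held a match, against 8 of 22 for all tested genes of that list. Across the RefSeq table, 12.8% of 32851 windows of this length held a match. Of the genes at least 1.5-fold higher in heat-shock-high cells (described below), 32 of the 173 with a window held one (18.5%), against 20 of 145 lower genes (13.8%) and 11.98% of all 2787 tested genes with a window. A match to these letters is a description of the sequence and not a binding site.

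The skin library as deposited held 4444 cells and 10612283 counts. After 338 cells with 10% or more mitochondrial counts were left out, cells had a median of 2358 counts and 1157 genes. The day 0 and day 10 dorsal libraries held 564 and 454 cells with 1204618 and 892449 counts, and list no mitochondrial gene, so that limit could not be applied to them. The skin and day 0 tables shared 4 cell labels, which are plain numbers, and the other pairs of tables shared 0.

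Hspa1a and Hspa1b counts were spread very unevenly. Neither gene had a count in 2839 cells, 651 cells had 1 count of the pair and 150 had 2. From there the distribution had a long upper range: 216 cells had 3 to 9 counts, 250 had 10 or more, 41 had 50 or more, and the highest cell had 218. The 466 heat-shock-high cells held 91.0% of all Hspa1a and Hspa1b counts of the library but 11.1% of its total counts. Their median was 11 counts of the pair, in cells with a median of 2195 counts in total, 1110.5 genes and 4.83% mitochondrial counts. Both genes were detected in 358 of these cells, Hspa1b alone in 88 and Hspa1a alone in 20. Over these 466 cells of 1 library, Spearman's rho between Hspa1a and Hspa1b counts was 0.556, in counts that share the cell's depth. Pearson's r was 0.160 over the same cells once counts were scaled to each cell's depth and put on a log scale. The cells were chosen by the sum of these counts, and the transcripts of the pair are near copies. These values therefore cannot show whether the genes of the pair rise together.

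**Figure D1:**
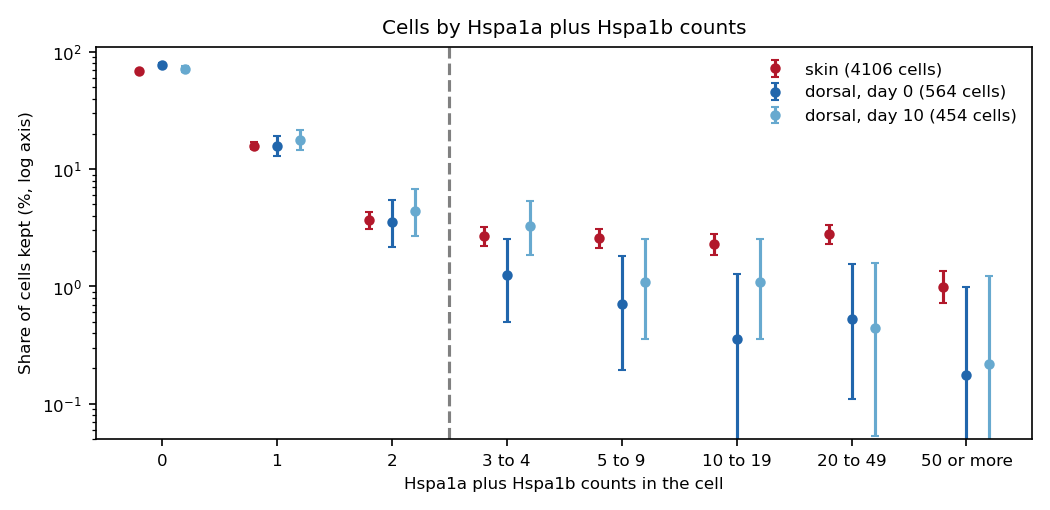
Share of the cells kept (log axis, in percent) by their Hspa1a plus Hspa1b counts, in the skin library (4106 cells) and the dorsal libraries of day 0 (564 cells) and day 10 (454 cells); points are shares, bars exact 95% binomial intervals, and the dashed line is the limit of 3 counts. In the skin library the share stays near 2.29 to 2.80% in each class between 3 and 49 counts, while 69.1% of its cells had 0.

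The 72 cells with 3 counts had 272 CPM of Dnajb1 (CPM, the counts of a gene per 1000000 counts of all genes but the pair), 216 CPM of Hsph1 and 1621 CPM of Hsp90aa1. The 150 cells with 2 counts had 189 CPM of Dnajb1, 146 CPM of Hsph1 and 1169 CPM of Hsp90aa1. Fos had 1514 CPM in the cells with 3 counts and 1821 CPM in those with 2, Il5 970 and 1230 CPM, and Gata3 1329 and 1596 CPM. The chaperone genes were thus higher just inside the limit, and Fos, Il5 and Gata3 were lower there.

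The matched pairs had almost the same depth and complexity. Heat-shock-high cells had medians of 2188 counts, 1107.5 genes and 4.84% mitochondrial counts, against 2188.5 counts, 1090 genes and 4.51% in matched cells. Summed counts were compared as CPM, and a gene was called higher or lower at 1.5-fold or more if both groups together had at least 100 counts of it. Of 3592 genes tested, 215 were higher (5.99%) and 176 were lower (4.9%), and the median log2 ratio over all of them was -0.01. Ribosomal protein genes had a summed ratio of 1.03 (95% counting interval 1.02 to 1.03) and mitochondrially encoded genes 1.04 (1.03 to 1.05).

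Other cytosolic chaperones were higher in heat-shock-high cells. Of 39 genes on the cytosolic heat shock and chaperone list, 27 were tested, 7 were higher and 0 were lower, against the 5.99% and 4.9% of all genes. The same shares are the background for the counts of the other lists with partners from any cluster. The list summed to 11783 CPM in heat-shock-high cells and 7893 CPM in matched cells, a ratio of 1.49 (1.45 to 1.53), and its median log2 ratio was 0.22.

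The largest ratios belonged to partners of the heat shock protein 70 machine. Hsph1, an exchange factor that reloads heat shock protein 70, had 299 CPM in heat-shock-high cells and 92.1 CPM in matched cells (log2 ratio 1.69), with counts in 162 and 78 of 464 cells. Dnajb1, the co-chaperone that hands unfolded clients to it, had 443 CPM and 165 CPM (log2 ratio 1.43), with counts in 233 and 129 cells. For both genes more cells had a count and the highest single cells were also higher, at 9 against 4 counts of Hsph1 and 12 against 5 counts of Dnajb1. Dnajb4, another J-domain co-chaperone, had a log2 ratio of 0.97, and Dnajc7 one of 0.62.

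The heat shock protein 90 branch was higher too. Hsp90aa1, its inducible cytosolic form, had 1876 CPM in heat-shock-high cells and 826 CPM in matched cells (log2 ratio 1.18). Hsp90ab1, the form made in most cells at all times, had 3414 CPM and 2146 CPM (log2 ratio 0.67), and was detected in nearly all cells of both groups, 455 and 431 of 464. Cacybp, a binding partner of the ubiquitin ligase component Siah, had a log2 ratio of 0.89. The constitutive heat shock protein 70, Hspa8, had 1915 CPM in heat-shock-high cells and 1305 CPM in matched cells, a ratio of 1.47 (1.37 to 1.57) that stayed just under the 1.5-fold limit.

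The other 20 tested members of the list stayed between the limits. Subunits of the TRiC chaperonin, which folds actin and tubulin, were close to even: the ratios were 1.04 for Cct2, 1.12 for Cct5, 1.08 for Cct8 and 1.10 for Tcp1. Dnajb6 had 198 CPM in heat-shock-high cells and 285 CPM in matched cells, the lowest ratio of the list (log2 ratio -0.52). Hspb1, a small heat shock protein, was below the minimum of 100 counts but had 86 counts in 22 heat-shock-high cells, 30 of them in 1 cell, and 2 counts in 2 matched cells. Hsf1, which encodes heat shock factor 1 itself, had 48 and 24 counts in these groups, too few to be tested.

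**Figure D2:**
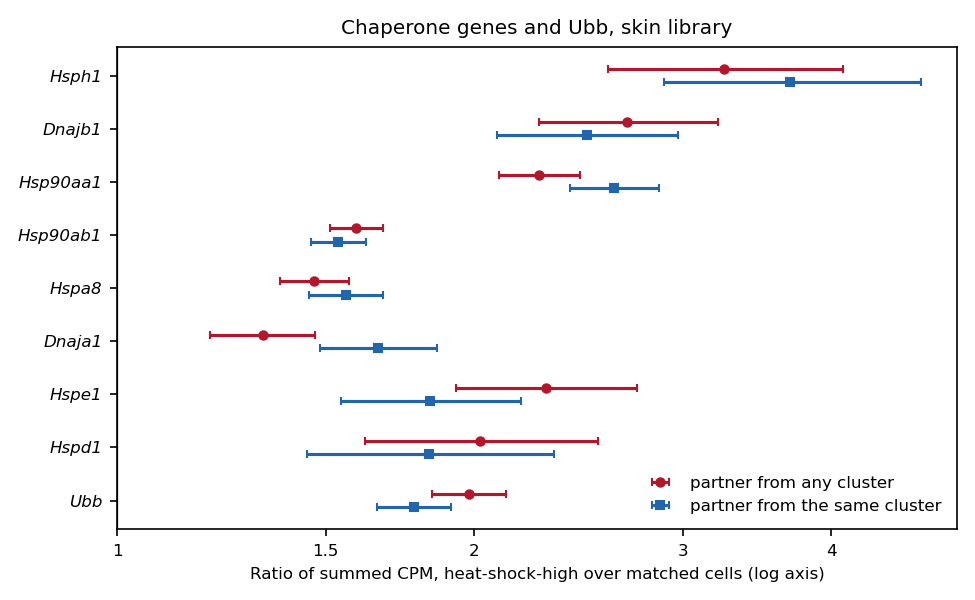
Ratio of summed CPM, heat-shock-high over matched cells of the skin library (log axis), for 9 chaperone and ubiquitin genes; circles are partners from any cluster (464 pairs), squares partners from the same cluster (442 pairs), and bars are 95% counting intervals. All 9 genes lie right of 1 in both comparisons, with Hsph1 farthest.

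The lists of other compartments lay on different sides of 1. The mitochondrial chaperone list had a summed ratio of 1.57 (1.42 to 1.74) and the endoplasmic reticulum list one below 1. In the mitochondrion, Hspe1 had 387 CPM in heat-shock-high cells and 168 CPM in matched cells (log2 ratio 1.20), and its partner Hspd1 had 215 CPM and 106 CPM (log2 ratio 1.01). These 2 encode the chaperonin ring and its lid and share 1 bidirectional promoter region. The mitochondrial heat shock protein 70, Hspa9, the third member of that list with enough counts, had 115 CPM and 120 CPM. In the endoplasmic reticulum list, 0 of 19 tested genes were higher and 2 were lower: Xbp1, the transcription factor of the unfolded protein response, at a log2 ratio of -0.69, and Ern1, the stress sensor that activates it, at -0.65. That list summed to 0.925 of the matched level (0.897 to 0.954). With partners from the same cluster, described below, the list was on the other side of 1, at 1.03, with 0 of 15 tested genes past the limit in either direction; Xbp1 had 0.790 (0.607 to 1.03) and Ern1 0.982 (0.765 to 1.26).

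Ubiquitin was higher beside the cytosolic chaperones. Ubb, a polyubiquitin gene induced by heat shock, had 2067 CPM in heat-shock-high cells and 1044 CPM in matched cells (log2 ratio 0.99), with counts in 400 and 348 of 464 cells. On the ubiquitin and proteasome list 19 genes were tested. Of these 2 were higher (Ubb and Psmd14) and 1 lower (Psmc4), against the 5.99% and 4.9% of all genes. Psmd14 and Psmc4 encode proteasome subunits and had 100 and 56 counts in heat-shock-high cells. With partners from the same cluster their ratios were 1.21 (0.875 to 1.67) and 0.785 (0.531 to 1.16). On the oxidative and metal stress list 2 of 13 tested genes were higher and 0 lower. Gpx1, a glutathione peroxidase, had 473 CPM and 237 CPM (interval of the ratio 1.72 to 2.32). Mt2, a metal-binding metallothionein, had 132 counts in 24 heat-shock-high cells, 94 of them in 5 cells, and 10 counts in 6 matched cells. The summed level of the list was nevertheless lower, at 0.776 (0.759 to 0.793) of the matched level, and most of its counts came from 1 gene: Fth1, the ferritin heavy chain, had 10416 counts in heat-shock-high cells and 15025 in matched cells.

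Immediate early genes were higher by a smaller margin. Of 28 tested, 5 were higher and 0 lower, and the list summed to 37763 CPM in heat-shock-high cells and 32302 CPM in matched cells, a ratio of 1.17 (1.15 to 1.19). Dusp2, a nuclear phosphatase that switches off MAP kinases in immune cells, had the largest ratio, with 696 CPM and 177 CPM (log2 ratio 1.97) and counts in 196 and 99 cells. Egr1, an early growth response factor, had a log2 ratio of 1.14, Zfp36, which destabilises cytokine mRNAs, one of 0.75, Jun, a subunit of AP-1, one of 0.74, and Atf3, a stress-induced repressor, one of 0.62. Fos, the other classical AP-1 subunit, had 2448 CPM in heat-shock-high cells and 1828 CPM in matched cells, a ratio of 1.34, under the limit. Fosl2, Dusp5, Btg1 and Nr4a3 had ratios between 0.82 and 0.85, so members of the list differed in direction.

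On the NF-kB list 2 of 20 tested genes were higher and 4 lower, and its summed ratio was 0.996 (0.973 to 1.02). Tnf, the cytokine tumour necrosis factor, had 279 CPM in heat-shock-high cells and 107 CPM in matched cells (log2 ratio 1.38). Tnfrsf18, a costimulatory receptor, had a log2 ratio of -0.88, Rel, an NF-kB subunit, one of -0.76, and Tnfrsf9, another costimulatory receptor, one of -0.69. Interferon response genes had a summed ratio of 1.69 (1.54 to 1.85) with 3 of 7 tested genes higher, among them Irf1, an interferon-induced transcription factor, and Ifi203, at log2 ratios of 0.91 and 0.68.

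Group 2 ILC genes were lower. These cells make the type 2 cytokines, and of 18 tested genes on their list 5 were lower and 2 higher; the list summed to 9266 CPM in heat-shock-high cells and 13198 CPM in matched cells, a ratio of 0.702 (0.685 to 0.720). Il5, the eosinophil growth factor, had 385 CPM and 1128 CPM (log2 ratio -1.55), and was detected in 78 and 170 of 464 cells, that is 16.8% (13.5 to 20.5%) and 36.6% (32.2 to 41.2%). The T cell receptor- and Il17f-rich cluster described below, in which Il5 is not expected, had a count of it in 11.2% of cells at a median of 2371 counts, and the 7SK-led cluster in 4.71% at a median of 1490.5 counts; both shares lie below those of the paired cells. Calca, a neuropeptide gene that ILC2s also transcribe, had a log2 ratio of -1.47, Il13 one of -0.93, Il1rl1, the receptor of interleukin 33, one of -0.85, and Lmo4, a LIM-only cofactor, one of -0.67. Il17rb, the receptor of interleukin 25, and Hes1, a Notch target, were higher, at 0.82 and 0.64.

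Gata3 itself, the factor that maintains ILC2s, had 1176 CPM in heat-shock-high cells and 1740 CPM in matched cells, a ratio of 0.676 (0.629 to 0.725), with counts in 319 and 385 cells. Rora and Icos, a transcription factor and a costimulator of ILC2s, had ratios of 0.68 and 0.69. All 3 stayed just short of the 1.5-fold limit. Not all cytokines were lower: Areg, the growth factor amphiregulin, had 454 CPM and 457 CPM, and Csf2 115 CPM and 128 CPM. Il17a had 23 counts in 6 heat-shock-high cells and 53 counts in 8 matched cells, and Ifng had 10 and 5 counts. General ILC markers were similar: Thy1, which encodes CD90, had a count in 71.1% and 69.2% of cells, Il7r in 75.2% and 72.0%, and Id2 in 86.4% and 87.7%.

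Several of these differences followed the amount of Hspa1a and Hspa1b. Cells with 0, 1 to 2, 3 to 9 and 10 or more counts of the pair were matched in depth to the last class, which left 250, 249, 193 and 250 cells. In that order the cytosolic chaperone list had 7670, 8826, 10665 and 12768 CPM. Hsp90aa1 had 790, 1015, 1535 and 2193 CPM, so cells with only 1 to 2 counts were already above cells with 0. Ubb had 1046, 1065, 1531 and 2640 CPM, and Dusp2 had 166, 146, 351 and 1038 CPM, so for these 2 genes the classes up to 2 counts were alike and the top class stood apart. The immediate early list had 31394, 32129, 33848 and 41587 CPM. Not every higher gene peaked in the last class: Gzmb had 46.7, 45.7, 217 and 126 CPM, and Trdc 20.7, 63.2, 123 and 77.1 CPM. The classes were not matched by cluster, and what the make-up of clusters adds to these values was not tested.

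On the falling side, Il5 had 940, 952, 608 and 144 CPM in the same 4 classes, and Gata3 had 1630, 1555, 1324 and 1022 CPM. Rora had 3057, 3161, 2756 and 1476 CPM, and Icos had 2217, 2201, 1845 and 1036 CPM. Thus for Il5, Rora and Icos the class with 1 to 2 counts had the level of cells with 0, and the drop began above 2. For comparison, Il5 had 238 CPM in the T cell receptor- and Il17f-rich cluster and 36.7 CPM in the 7SK-led cluster described below. Nfkb1, an NF-kB subunit gene, had 1300, 1260, 1155 and 635 CPM, whereas Nfkbia, the inhibitor that NF-kB induces, had 2344, 2398, 2620 and 3748 CPM.

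**Figure D3:**
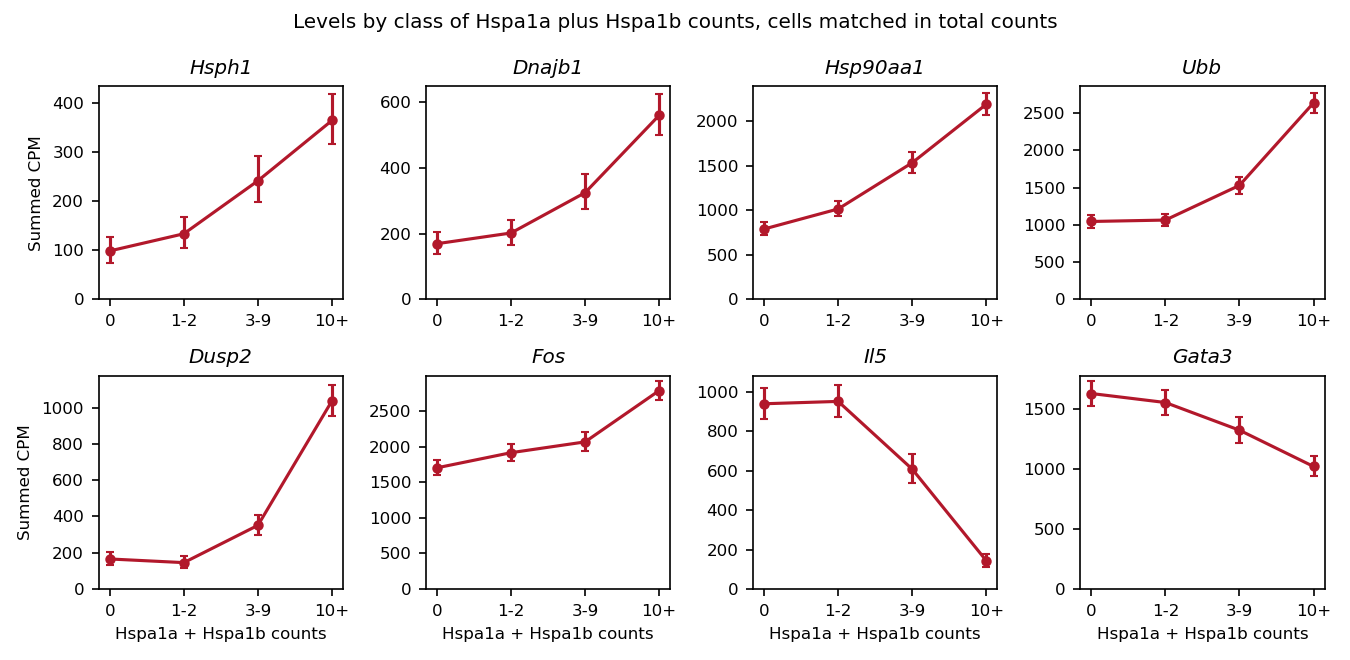
Summed CPM (linear axis) of 8 genes in skin cells with 0, 1 to 2, 3 to 9 and 10 or more Hspa1a plus Hspa1b counts (250, 249, 193 and 250 cells matched in total counts); bars are 95% counting intervals. Hsph1, Dnajb1, Hsp90aa1, Ubb, Dusp2 and Fos are highest in the last class and Il5 and Gata3 lowest there.

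Heat-shock-high cells were found in all 10 clusters of the library, in very unequal shares. Cells were clustered without the heat shock, mitochondrial chaperone and immediate early lists, and a doublet caller marked only 3 of the 4106 cells (0.0731%, none of them heat-shock-high), so it did little here. Apart from a small cluster led by Lyz2 (7 of 12 cells), the largest share was 33.7% (29.6 to 38.0%). It was found in a cluster of 510 cells led by 7SK, Hspb1 and the small nuclear RNAs U1 and U5. This cluster held 36.9% of all heat-shock-high cells and 12.4% of all cells. It had the fewest counts per cell, a median of 1490.5, and the highest median share of mitochondrial counts, 6.42%. It is left unnamed, since none of the fixed cell type markers led it.

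In a cluster of 76 cells led by the chemokine genes Ccl4, Ccl3 and Xcl1 the share was 27.6% (18.0 to 39.1%). In 197 cells led by Trgc2, Il17f, Blk and Cd3d it was 17.8% (12.7 to 23.8%). A cluster of 1141 cells whose leading genes included Nfkbid, Tnfsf9 and Spry1 had 11.7% (9.93 to 13.8%), 134 cells in all. The largest cluster, 1881 cells led by Mest, Fzd4 and Fndc4, had 4.57% (3.67 to 5.62%). In 151 cells led by Klrg1, Il1rl1, Arg1 and Il5, which carried 4 of the fixed ILC2 markers among its leading 10 genes, the share was 3.31% (1.08 to 7.56%), and in 84 cells led by Tff1 and Il1r2 it was 1.19% (0.0301 to 6.46%). Of 12 cells led by Lyz2, 7 were heat-shock-high. The share with at least 1 count of the pair varied less, between 22.5% and 46.7% among the 8 clusters of 40 or more cells. The cluster richest in Il5 held 5 heat-shock-high cells, and the Nfkbid- and Tnfsf9-rich cluster had a share near the 11.3% of the whole library.

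The 7SK- and U1-led cluster is matched by a difference in structural RNAs over all pairs, though not clearly in 7SK itself. 7SK had 89 counts in heat-shock-high cells and 66 in matched cells, a ratio of 1.36 (0.977 to 1.90). U1 had 169 counts in heat-shock-high cells and 46 in matched cells (ratio 3.70, 2.66 to 5.25), and U2 had 390 and 154 (ratio 2.55, 2.11 to 3.09). All 9 such RNAs looked at, a set chosen after their values were seen, summed to 848 CPM and 329 CPM, a ratio of 2.58 (2.28 to 2.91). By contrast the list of long nuclear RNAs and splicing factors had a ratio of 0.983 (0.945 to 1.02). What these small RNAs contribute to the other differences was not tested.

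Matching within clusters changed the 2 sides of the pattern unequally. The chaperone and immediate early lists were kept out of the clustering and other genes were not, so the 2 sides were not treated alike. With each partner taken from the same cluster, a comparison added after the data were seen, 442 pairs remained. Of 3381 genes tested, 100 were higher (2.96%) and 57 lower (1.69%); 62 of the higher and 24 of the lower genes had been called before. The cytosolic chaperone list kept its ratio, at 1.56 (1.52 to 1.61), with 8 of 24 tested genes higher, and the mitochondrial chaperones had 1.48 (1.33 to 1.64). Hsph1 had a ratio of 3.69, Hsp90aa1 2.63, Dnajb1 2.49 and Ubb 1.78. Dusp2 had 2.39 and Jun 1.62, while the immediate early list as a whole had 1.09 (1.07 to 1.11) and Fos 0.996.

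Most of the ILC2 difference was not seen within clusters. The list had a ratio of 0.929 (0.904 to 0.955), Gata3 0.908 (0.840 to 0.981), Rora 0.902, Icos 0.972, Il13 0.856 and Calca 0.882, and Il1rl1 was on the other side of 1, at 1.14. Il5 was the exception, with 389 CPM in heat-shock-high cells and 819 CPM in matched cells, a ratio of 0.476 (0.421 to 0.536). The clusters were made with the ILC2 genes among others, so partners from the same cluster were also chosen to resemble the cell in those genes.

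Cluster by cluster, the cytosolic chaperone list was higher in heat-shock-high cells in each of the 5 clusters with at least 20 pairs. The ratio was 1.68 (1.58 to 1.78) in the 7SK-led cluster, 1.77 (1.60 to 1.95) in the Trgc2- and Il17f-led one, 1.63 (1.55 to 1.72) in the Nfkbid- and Tnfsf9-rich one, 1.42 in the Mest-led one (3008 counts in heat-shock-high cells and 2127 in matched cells) and 1.30 (1.16 to 1.46) in the Ccl4-led one. Hsp90aa1 had ratios between 2.31 and 3.55 in these 5. The immediate early list was uneven, with 1.24 (1.17 to 1.32) in the Ccl4-led cluster and 0.978, with an interval that includes 1, in the Nfkbid- and Tnfsf9-rich cluster, where it had 50864 CPM in heat-shock-high cells and 51987 CPM in matched cells. Il5 had 192 counts in heat-shock-high cells and 544 in matched cells of the Mest-led cluster (86 pairs), and 49 and 185 counts in the Nfkbid- and Tnfsf9-rich cluster (132 pairs). In the other 3 clusters it had at most 16 counts in either group.

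**Figure D4:**
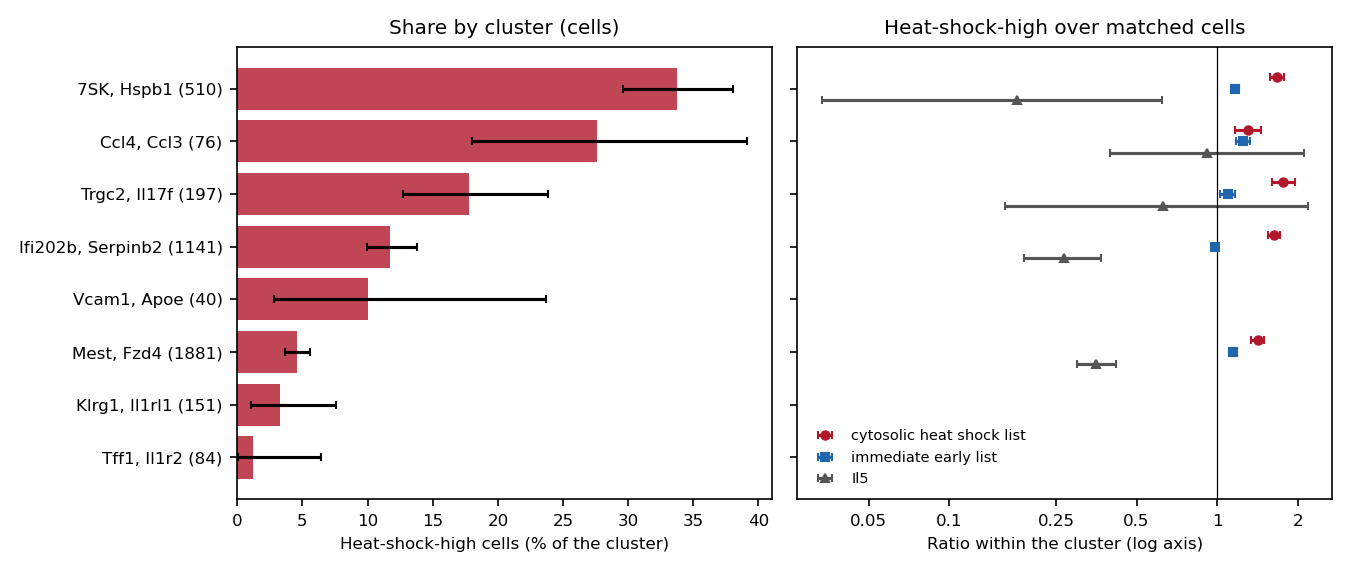
Left, heat-shock-high cells as a percent of each cluster of 40 or more cells, named by its first 2 leading genes with its number of cells (the cluster called Nfkbid- and Tnfsf9-rich in the text is the one of 1141 cells); right, ratio of heat-shock-high over matched cells within the 5 clusters with at least 20 pairs (log axis). Bars are 95% binomial and counting intervals; the heat shock list lies right of 1 in all 5 clusters.

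**Figure D5:**
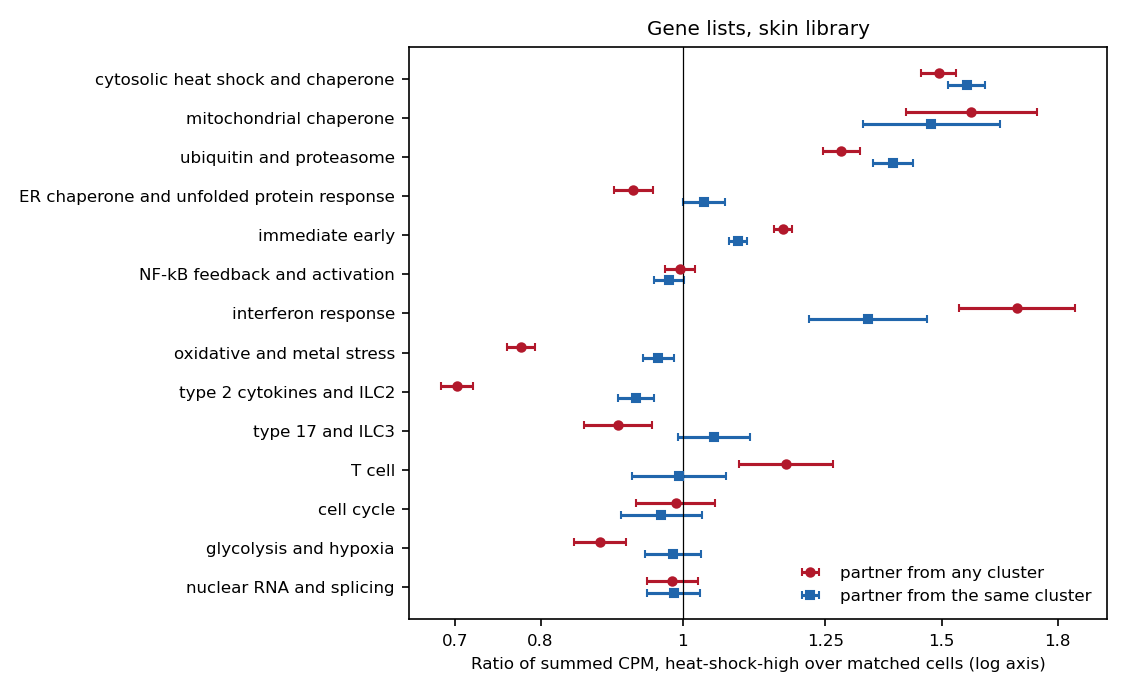
Ratio of summed CPM of 14 gene lists, heat-shock-high over matched cells of the skin library (log axis), with partners from any cluster (circles, 464 pairs) and from the same cluster (squares, 442 pairs); bars are 95% counting intervals. The cytosolic and mitochondrial chaperone lists and the ubiquitin list stay right of 1 in both comparisons. With partners from the same cluster the endoplasmic reticulum list shifts from 0.925 to 1.03 and the ILC2 list from 0.702 to 0.929.

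Markers of other cell types differed between the groups as well. T cell receptor genes differed in direction. Trdc, the constant region of the δ chain, had 99 counts in 39 heat-shock-high cells and 22 counts in 17 matched cells, and a Cd3d, Cd3e or Cd3g count was found in 20.3% (16.7 to 24.2%) and 12.5% (9.63 to 15.9%) of cells. Trbc1, a β chain constant region, had 368 counts in heat-shock-high cells and 490 in matched cells, a ratio of 0.757 (0.659 to 0.868), and Trbc2 a ratio of 1.17. The sort named for the bulk libraries would have removed γδ T cells. Of the 18 T cell genes, 8 were tested and 3 were higher (Trdc, Trgc1 and Trac) and 0 lower; the list summed to 1407 CPM and 1198 CPM, and 1 gene was at 0 in each group, Cd8b1 in heat-shock-high cells and Cd5 in matched cells. With partners from the same cluster the T cell list had a ratio of 0.994 (0.924 to 1.07), with 2 of 9 tested genes higher and 0 lower. Trdc still had 1.79 (1.27 to 2.56) and Trgc1 1.53 (1.06 to 2.22), while Trac had 1.17 (0.871 to 1.56). T cell genes could enter the clustering and the chaperone lists could not. The ratios of these lists within clusters are therefore not comparable.

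Myeloid genes summed to 608 CPM in heat-shock-high cells and 310 CPM in matched cells, but Lyz2, which encodes lysozyme, had 248 of its 257 counts in 5 heat-shock-high cells. Of the 18 myeloid genes, 2 were tested and 1 was higher, and 2 were at 0 in heat-shock-high cells and 7 in matched cells; S100a9 and Cd207 were at 0 in both. Plac8, Cybb and Ifitm3, also among the 12 highest genes, had most of their counts in 5 cells as well. Ifi202b had 111 counts in 2 heat-shock-high cells and none in matched cells, and Serpinb2 had 154 counts in 3 heat-shock-high cells, 150 of them in 1. These 2 genes describe single cells, not the group.

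Keratinocyte genes were rare. Their list summed to 281 CPM in heat-shock-high cells and 134 CPM in matched cells, and 7 and 10 of its 15 genes were at 0. Krt5, Krt14 or Krt15 was found in 1 heat-shock-high cell and 0 of 464 matched cells, which allows a share of cells with a count of up to 0.647% (3 cells of 464) and does not show that no cell expressed them. Cd74, the invariant chain of MHC class II, was lower, at a log2 ratio of -1.23, with 112 of its 285 counts in 5 matched cells; any H2.Aa, H2.Ab1 or H2.Eb1 count was found in 7.76% and 7.97% of cells. Cycling cells were as frequent in both groups: a Mki67, Top2a, Ccna2 or Birc5 count was found in 36 heat-shock-high cells and 35 matched cells.

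Genes of other lymphocyte lists pointed both ways. On the type 17 and ILC3 list Ltb, a lymphotoxin subunit, and Tmem176a were higher, at log2 ratios of 0.93 and 0.64, and Kit, the stem cell factor receptor, was lower, at -0.83. On the type 1 and NK list Fcer1g, a signalling adaptor, and Gzmb, the protease granzyme B, both had 1.12, but 116 of the 186 Gzmb counts lay in 5 heat-shock-high cells. Among survival genes the death-promoting Bax and Pmaip1 were higher, at 0.75 and 0.68, and the death receptor Fas and the survival gene Bcl2a1d were lower, at -0.82 and -0.69. Satb1, a chromatin organiser, was lower at -0.65, and Ccr7, a homing receptor, at -0.66. Ighm, an immunoglobulin gene, was lower at -1.09, with 73 of its 82 counts in 5 matched cells. Of these genes only Gzmb was still past the limit, in the same direction, with partners from the same cluster, at a ratio of 2.56. Ltb had 1.46, Tmem176a 1.19, Bax 1.23, Pmaip1 1.35, Kit 0.827, Fas 0.852, Bcl2a1d 0.772 and Satb1 0.787, while Fcer1g, Ccr7 and Ighm lay on the other side of 1.

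Beyond these genes, Id3, an inhibitor of E proteins, was among the highest genes, with 126 CPM in heat-shock-high cells and 32.2 CPM in matched cells (log2 ratio 1.96). The lowest ones outside the lists were Pou2af1, a lymphocyte coactivator (-1.83), Tnfsf4, the ligand of OX40 (-1.56), Gabarapl1, an autophagy gene (-1.41), and Palld, Ptgfrn, H1f2, Spin1, Isy1 and Paip1, at log2 ratios between -1.16 and -1.06. Pou2af1 and Palld were also among the leading genes of the Mest-led cluster. With partners from the same cluster Tnfsf4 had a ratio of 0.495, H1f2 0.551, Ptgfrn 0.573, Gabarapl1 0.584 and Spin1 0.646. Pou2af1 had 0.651 (0.385 to 1.08), Isy1 0.787 (0.636 to 0.971), Palld 0.824 (0.528 to 1.28) and Paip1 0.829 (0.497 to 1.37). The lower genes had longer genomic spans than all tested genes, at a similar median exonic length (4774 against 4718 bases). They had a median span of 36002.5 bases from first to last exon, against 24439 bases for all tested genes, and the higher genes had 16962 bases; coordinates were found for 97.7%, 98.3% and 97.2% of these genes.

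The dorsal libraries, which played no part in the choice of the skin cells, gave the same rule far fewer cells. At day 0, 17 of 564 cells had 3 or more counts of the pair (3.01%, 1.77 to 4.78%), and at day 10, 28 of 454 (6.17%, 4.14 to 8.79%). Tissue site, library and cell limits differ from those of the skin library, so these shares are values of 3 libraries and not a comparison of conditions. Matching left 16 pairs at day 0 and 28 at day 10, with 27378 and 52719 summed counts of heat-shock-high cells.

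Chaperones were higher in both dorsal libraries. The cytosolic list had a ratio of 2.05 (1.75 to 2.40) at day 0 and 1.76 (1.57 to 1.97) at day 10. Hsp90aa1 had 74 counts in heat-shock-high cells and 25 in matched cells at day 0 (ratio 2.98, 1.87 to 4.90), and 153 and 39 at day 10 (ratio 3.94, 2.76 to 5.75). Hsph1 had 26 counts and 1 count at day 0, and 15 and 4 at day 10. Hspa8, just under the limit in the skin library, had ratios of 1.56 (1.11 to 2.22) and 1.88 (1.48 to 2.40). Dnajb1 had 9 and 5 counts at day 0 and 20 and 10 at day 10, with intervals that include 1.

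The immediate early list had a ratio of 2.32 (2.06 to 2.61) at day 0 and 1.75 (1.62 to 1.89) at day 10. Jun had 13 counts in heat-shock-high cells and 2 in matched cells at day 0, and 26 and 3 at day 10; Tnf had 19 and 1, and 12 and 3. Dusp2, the leading immediate early gene of the skin library, had ratios of 1.51 (0.359 to 7.29) and 1.34 (0.518 to 3.60), which these few counts cannot tell from 1. Il5 was lower in both, with 1 count in heat-shock-high cells and 24 in matched cells at day 0 and 16 and 143 at day 10. Gata3 was not, with ratios of 1.01 (0.603 to 1.69) and 1.14 (0.808 to 1.62), and the ILC2 list had 1.09 (0.942 to 1.27) and 0.761 (0.688 to 0.842). Of the named genes past 1.5-fold in the skin library with at least 10 dorsal counts, 22 of 29 had the same direction at day 0 and 31 of 41 at day 10. Many of these dorsal intervals include 1. The share of all genes with the same direction was not counted, so these counts have no background to be read against.

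In the 14 bulk libraries, of 14450612 to 44098274 counts, Hspa1a and Hspa1b together (here as CPM of all counts) lay between 17.2 and 832 CPM, with a median of 367 CPM. The highest was replicate 3 of RORgt-fm_pos_Gata3flox. The lowest were both Gata3KO libraries, at 18.8 and 17.2 CPM, and the WT libraries of the same tamoxifen experiment had 327 and 49.4 CPM, so replicates of 1 group differed several-fold. In the other 10 libraries the pair had 322 CPM or more. Bulk levels cannot tell fewer heat-shock-high cells from less RNA per cell. Hsp90aa1 lay between 1185 and 2349 CPM and Dnajb1 between 409 and 1014 CPM over the same 14 libraries, narrower ranges than that of the pair.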

How the data were processed

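The authors deposited raw counts per gene for every library; per the submitters' processing notes, HISAT2 2.1.0, featureCounts and Subread were used with mm10. The single-cell platform, and whether counts are of molecules or reads, is not given in the sources used here. Single-cell tables pair gene symbols with plain cell numbers.

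The members and gene lists were chosen with earlier results of these data known. Cells were matched 1 to 1 without replacement, the deepest first, on total counts (10% tolerance); counts were summed and divided by the sum without Hspa1a and Hspa1b. Ratios have exact conditional binomial 95% intervals and log2 ratios a prior count of 0.5. No p-value was made, since cells are not replicates. Steps were tested on simulated data. Clusters came from scanpy 1.11.5 (2000 variable genes, 30 components, 15 neighbours, resolution 0.5). Named genes are 9 fixed ones, the 8 cytosolic chaperones with the largest ratios, up to 4 past 1.5-fold of every other list, and the 12 highest and 12 lowest genes; others were named after their values were seen, as members of a list or a class.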

Additional observations from a re-analysis of the deposited data

Results flagged for a closer look

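For 4 named genes the interval of the ratio, heat-shock-high over matched cells, lay wholly on one side of 1 in 1 library and wholly on the other side in another; the difference between libraries was not tested. Il13 had a ratio of 0.523 (95% counting interval 0.436 to 0.625) in the skin library, 5.38 (1.54 to 28.8) at day 0 and 0.861 (0.478 to 1.54) at day 10. Calca had 0.359 (0.278 to 0.462) in skin, 4.03 (1.3 to 16.6) at day 0 and 1.54 (0.952 to 2.53) at day 10. Rel had 0.59 (0.525 to 0.661) in skin, 1.01 (0.414 to 2.45) at day 0 and 1.86 (1.05 to 3.38) at day 10. Tmem176a, a membrane protein gene high in ILC3s, had 1.56 (1.22 to 1.99) in skin, 0.155 (0.017 to 0.685) at day 0 and 1.81 (0.544 to 6.87) at day 10. The day 0 values rest on 16 pairs of cells and few counts. Il13 had 16 counts in heat-shock-high cells and 3 in matched cells there, Calca 16 and 4, and Tmem176a 2 and 13. With partners from the same cluster, the skin ratios were 0.856 for Il13, 0.882 for Calca and 1.19 for Tmem176a. The intervals of these ratios include 1. Rel stayed lower in that comparison, at 0.722 (0.639 to 0.815).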

How the results depend on the processing

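No paired analysis was possible because the results come from no test and each single-cell group is 1 library. The direction of the 3 summed list ratios held under all 12 alternatives in the skin library, and that of the 2 dorsal ones under the 3 tried. Where list ratios left their counting interval, the cause was not tested. The cytosolic chaperone ratio (1.49) was 1.40 with a limit of 2 counts of the pair, 1.54 as a mean of per-cell CPM and 1.56 with partners from the same cluster. The immediate early ratio (1.17) was 1.20 when matching on totals without the pair, 1.19 against all cells with 0, 1.28 and 1.14 with limits of 5 and 2 counts, 1.19 with mitochondrial counts under 5%, 1.20 after thinning to 1000 counts and 1.09 with partners from the same cluster. The ILC2 ratio (0.702) was 0.678 against all cells with 0, 0.635 and 0.769 with limits of 5 and 2 counts, 0.671 after thinning, 0.682 per cell, 0.929 with partners from the same cluster and 0.784 without the 7SK-led cluster. The last 2 alternatives were chosen after seeing the data.

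The 215 higher and 176 lower genes became 100 and 57 with partners from the same cluster, 111 and 75 without the 7SK-led cluster (83 and 58 shared), 949 and 487 at a minimum of 30 counts, 40 and 69 at 300, 5891 and 4037 with no minimum, and 49 and 17 at 2-fold. Lower genes numbered 300 and 90 with limits of 5 and 2 counts, and higher genes 136 with mitochondrial counts under 5% and 84 after thinning, which tested fewer genes. In the dorsal libraries, limits of 2 and 5 counts gave chaperone ratios of 1.48 and 3.11 at day 0, and with 5 counts 2.07 at day 10; immediate early ratios were 1.73 and 3.11 at day 0, and 1.49 and 2.13 at day 10. Of 64 named genes past 1.5-fold with counts in both groups, 27 stayed past it under all 12 alternatives, among them Hsph1, Dnajb1, Hsp90aa1, Ubb, Dusp2 and Il5. Ratios changed side for Ighm (1.08 against all cells with 0, 1.65 with partners from the same cluster) and, with partners from the same cluster, for Il1rl1 (1.14), Fcer1g (0.796), Lyz2 (0.598) and Ccr7 (1.05). Counts limit the dorsal ratios and the genes under 100 summed counts; with 1 library per group, the spread between libraries is not known.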

Other observations

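Among the 338 skin cells left out for their mitochondrial share, 38 had 3 or more Hspa1a plus Hspa1b counts, which is 11.2% (exact 95% binomial interval 8.08 to 15.1%), close to the 11.3% of the cells kept. Their median was 1004 counts, against 2358 in the cells kept, with a median of 12.7% mitochondrial counts.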
